A study of Mus musculus with 162 samples.

Results

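The genes of oxidative phosphorylation (OXPHOS) were followed across 9 organs of mice that were fed ad libitum or had fasted for up to 22 h. Members were the genes whose symbol names a subunit of respiratory complexes I to IV or of ATP synthase (Nduf, Sdh, Uqcr, Cox4 to Cox8, Atp5) or a protein-coding gene of the mitochondrial genome (mt-Nd, mt-Cytb, mt-Co, mt-Atp). Of the 53686 genes counted, these name patterns matched the 94 members and 7 further symbols that were set aside (Cox7a1, Cox8b and 5 numbered pseudogenes). Of the 94 members, 81 were nuclear (36 of complex I, 4 of complex II, 8 of complex III, 16 of complex IV and 17 of ATP synthase, complex V) and 13 were mitochondrially encoded (7, 1, 3 and 2 of complexes I, III, IV and V). Atp5s, which codes for a coupling factor rather than a subunit, and the pseudogene Atp5l2-ps matched the patterns too and were kept.

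The mice were adult male C57BL/6J wild types without any transgene. Each of 18 mice gave all 9 organs: olfactory bulb (OB), telencephalon with diencephalon (BRN), cerebellum (CBL), brainstem (BST), stomach (STM), liver (LIV), interscapular brown fat (iBAT), perigonadal white fat (pgWAT) and posterior-subcutaneous white fat (psWAT). Groups of 3 mice were fed (0 h) or fasted for 2, 8, 12, 18 or 22 h, and all were killed at the same time of day, so food was withdrawn at a different time of day in each fasted group. This gave 54 groups of 3 libraries of poly(A)-selected RNA. The 5 libraries left out by the study's quality control, were STM 12 h replicate 3, BRN 8 h replicate 3, BRN 18 h replicate 1, iBAT 22 h replicate 1 and psWAT 22 h replicate 2.

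Each respiratory complex is a mosaic. Complex I (NADH dehydrogenase), complex III (cytochrome bc1), complex IV (cytochrome c oxidase) and ATP synthase combine nuclear subunits imported from the cytosol with subunits made inside the mitochondrion, whereas complex II (succinate dehydrogenase) is wholly nuclear. Electrons from NADH and succinate pass to oxygen while complexes I, III and IV pump protons, and ATP synthase spends the proton gradient on ATP. In brown fat, uncoupling protein 1 lets the protons leak back to produce heat, and the tissue is known for dense mitochondria with little ATP synthase.

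The kept libraries held from 3045845 to 27801717 counts (median 8735554). Of the kept libraries, 4 stood nearer to another organ than to their own in earlier results of these data (BRN 2 h replicate 3, BRN 18 h replicate 2, psWAT 12 h replicate 3 and pgWAT 22 h replicate 2), and results that change without them are given with and without. Values are CPM, the count of a gene per 1000000 counts of its library, a share is the summed count of a gene group as a percent of all counts of a library, and log2 changes come from edgeR, whose library sizes were scaled by TMM. A gene was called when its adjusted p, over all genes tested in that comparison, was under 0.05. Late fasting means the average of 18 h and 22 h, and early the average of 0 h and 2 h. In the early libraries, hepatocyte markers summed to 75600 to 86100 CPM in LIV, markers of gastric epithelium other than parietal cells to 148000 to 198000 CPM in STM, and brown adipocyte markers to 5300 to 9090 CPM in iBAT. The psWAT libraries were mixed tissue, with skeletal muscle markers at 16.2 to 30900 CPM, lymphocyte markers at 598 to 2750 CPM and brown adipocyte markers at 2.98 to 1320 CPM in the early libraries.

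The promoters of nuclear OXPHOS genes are known to be enriched in a few short elements, among them those of nuclear respiratory factor 1 (NRF1), ETS-family factors such as GABP, YY1, SP1 and the oestrogen-related receptors (ERR). RefSeq promoters on GRCm38.p6, from 250 bases before to 50 bases after the start, matched 64 of the 81 nuclear members. Searched on both strands, the NRF1 letters GCGCNTGCG stood in 34.8% of the members' 69 promoters and in 6.3% of all 32851 promoters. The ETS letters CCGGAAG stood in 23.2% against 8.9%, the YY1 letters AANATGGC in 23.2% against 6.1%, the ERR letters TCAAGGTCA in 2.9% against 0.4%, and the SP1 letters GGGCGG in 39.1% against 35.7%. These shares are a description of letters, and a match is not evidence that the factor binds. The promoters below belong to genes that carry the results on fasting, with each match in capitals. Uqcr11 and Cox6a1 rose in fasted brown fat, Sdha was the nuclear member lower there in late minus early, and Sdhd fell in the fasted stomach.
Uqcr11: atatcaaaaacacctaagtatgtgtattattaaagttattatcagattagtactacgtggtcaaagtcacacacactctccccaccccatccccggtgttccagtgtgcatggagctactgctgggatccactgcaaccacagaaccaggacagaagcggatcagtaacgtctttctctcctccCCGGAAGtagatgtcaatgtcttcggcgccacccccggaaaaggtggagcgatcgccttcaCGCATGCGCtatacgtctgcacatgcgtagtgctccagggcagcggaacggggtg
Cox6a1: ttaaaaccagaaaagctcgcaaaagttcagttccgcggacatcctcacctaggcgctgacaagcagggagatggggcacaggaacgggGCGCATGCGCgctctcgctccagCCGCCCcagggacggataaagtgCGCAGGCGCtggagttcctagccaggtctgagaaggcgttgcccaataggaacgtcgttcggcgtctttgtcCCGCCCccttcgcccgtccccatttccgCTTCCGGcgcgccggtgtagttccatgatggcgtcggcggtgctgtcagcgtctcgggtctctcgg
Sdha: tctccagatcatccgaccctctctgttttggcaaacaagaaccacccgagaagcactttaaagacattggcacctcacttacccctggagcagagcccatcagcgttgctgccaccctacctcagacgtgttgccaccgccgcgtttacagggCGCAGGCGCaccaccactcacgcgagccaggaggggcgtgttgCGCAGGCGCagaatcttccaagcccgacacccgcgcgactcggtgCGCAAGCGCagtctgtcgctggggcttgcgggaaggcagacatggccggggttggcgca
Sdhd: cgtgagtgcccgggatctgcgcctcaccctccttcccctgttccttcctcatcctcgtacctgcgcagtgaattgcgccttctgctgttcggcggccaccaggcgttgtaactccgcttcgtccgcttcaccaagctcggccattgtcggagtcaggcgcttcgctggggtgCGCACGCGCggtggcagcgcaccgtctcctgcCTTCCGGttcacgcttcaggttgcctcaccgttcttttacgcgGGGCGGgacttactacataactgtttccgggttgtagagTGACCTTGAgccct

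They lie on the minus strand at chr10:80406772-80407071 (Uqcr11), chr5:115348909-115349208 (Cox6a1), chr13:74350191-74350490 (Sdha) and chr9:50603800-50604099 (Sdhd) of GRCm38.p6. The Uqcr11 window held 1 ETS and 1 NRF1 match. The Cox6a1 window held 3 NRF1 matches (a pair of them overlapping), 2 SP1 matches and 1 ETS match. The Sdha window held 3 NRF1 matches and no other, and the Sdhd window held 1 match each for NRF1, ETS, SP1 and ERR. Sdha and Sdhd code for subunits of the same complex but shared only the NRF1 letters among the 5 motifs searched.

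Brown fat had the highest median share of counts from both genomes, and its nuclear share did not overlap that of another organ among the kept libraries. The 81 nuclear members took a median of 4.57% of all counts in iBAT (2.81% to 10.6% over 17 libraries), against medians of 0.883% in psWAT to 1.65% in BRN among the other organs. The 13 mt genes took a median of 23.6% in iBAT (4.70% to 35.4%), then 9.41% in STM and 7.44% in LIV, while medians elsewhere were 3.43% to 5.76%. The highest nuclear share in a kept library elsewhere was 2.46%, whereas the mt share of iBAT overlapped that of other organs, STM reaching 23.6%. In bulk tissue, fewer cells of a type and less RNA per cell cannot be told apart, and a share of counts says nothing of the RNA or mitochondria in a cell.

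**Figure D1:**
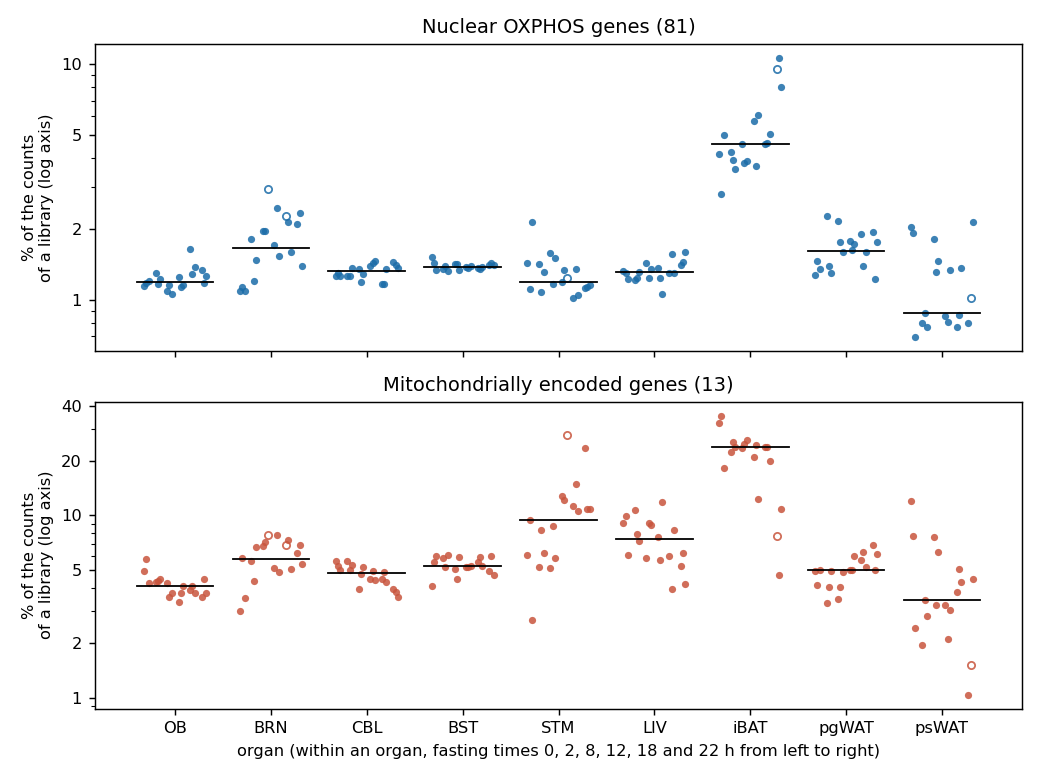
Share of the counts of each library taken by the 81 nuclear OXPHOS genes (upper panel) and the 13 mitochondrially encoded genes (lower panel), in percent on a log axis, for each organ with fasting times from left to right. Filled points are the kept libraries, open points the 5 left out, and bars the median of the kept libraries. The kept iBAT libraries (2.81% to 10.6%) lie above the kept libraries of the other organs in the upper panel, and a BRN library left out reaches 2.94%.

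Each organ was compared with the mean of the other 8 in a fit over all kept libraries and 22113 genes, in which 80 nuclear and 12 mt members were tested. In iBAT, 76 nuclear members were higher, Uqcrc1 among them, whose counts are not read as its expression, and 1 was lower, with a median log2 difference of 2.21, beside 34.8% of all genes higher and 36.2% lower. All 12 mt members tested were higher there (median 2.56). LIV had 58 nuclear members higher and 9 lower (median 0.79) and 10 mt members higher, beside 35.7% and 42.5% of all genes. STM was split, with 23 nuclear members higher and 21 lower, Uqcrc1 among the lower ones, and 9 mt members higher, beside 35.8% and 34.4%.

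Most nuclear members were lower in OB, CBL, BST and psWAT than in the mean of the other 8 organs. That mean held iBAT, whose own median differences were 2.21 (nuclear) and 2.56 (mt). A lower call therefore need not mean a lower level than in each other organ. In OB 2 nuclear members were higher and 74 lower (all genes 40.3% and 34.2%), in CBL 4 and 70 (39% and 35.8%), in BST 6 and 59 (40.7% and 35.2%), and in psWAT 6 and 66 (42.2% and 30.9%). BRN and pgWAT were divided, with 19 higher, Cox7b2 among them, and 28 lower (37.6% and 36.6%) and 16 higher and 26 lower (42% and 30.2%). No mt member was higher in these 6 organs, and between 8 (BRN, median -0.37) and 12 (psWAT, median -1.08) were lower. The BRN count was 4 to 6 with a replicate number left out and 5 by DESeq2, and the pgWAT count of 10 became 6 to 9 with a replicate number left out. Against the mean of pgWAT and psWAT, iBAT had 77 nuclear members higher, again with Uqcrc1, and 1 lower (median 2.28) and 12 mt members higher (median 3.02), beside 29.4% and 44.1% of all genes. In the 3 fed libraries per organ alone, the counts were smaller for psWAT (10 nuclear members and no mt member), BST (24 and 1) and pgWAT (25 and 3). The mt calls there were also nearly lost in OB (1), CBL (0) and STM (1), whereas iBAT still had 76 nuclear and 12 mt members called and LIV 53 and 10.

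Single subunits of each of the 5 complexes shared this difference in iBAT. Sdhd, a membrane anchor of complex II, was at 854 ± 371 CPM (SD, n = 3) in the fed iBAT libraries and at 90.1 to 267 CPM on average in the other fed organs, and the log2 difference over all times was 3.28 (SE 0.09, adjusted p = 9.33e-77). Uqcrfs1, the Rieske iron-sulfur protein of complex III, differed by 3.11 (SE 0.08, adjusted p = 1.57e-78). Ndufs1, the largest iron-sulfur subunit of complex I, differed by 3.06 (SE 0.07, adjusted p = 6.99e-86), and Cox5a, a subunit of complex IV, by 2.79 (SE 0.09, adjusted p = 4.08e-62). The catalytic core of ATP synthase was also higher, with Atp5a1 (alpha) 2.39 higher (SE 0.06, adjusted p = 5.23e-76) and Atp5b (beta) 2.81 higher (SE 0.08, adjusted p = 9.43e-71).

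Atp5g1 was the nuclear member that went the other way. It codes, like Atp5g2 and Atp5g3, for the c subunit of the ATP synthase rotor, and its low expression is known to limit ATP synthase in brown fat. The 3 fed iBAT libraries held 1.23 to 3.97 CPM (mean 2.33 ± 1.45, SD), and the group means elsewhere ran from 11.2 CPM in pgWAT to 85.2 CPM in STM. The fed iBAT libraries lay below these means, and the log2 difference from the other organs over all times was -3.05 (SE 0.19, adjusted p = 3.08e-33). Up to 18 h iBAT libraries reached 20.1 CPM, with a median of 1.75, so over all times they overlapped those of pgWAT, which began at 10.4 CPM. The summed c-subunit genes reached 254 ± 87.1 CPM in fed iBAT (SD, n = 3), of which Atp5g1 made up 0.894 ± 0.337%, whereas the sum was 362 to 667 CPM on average in the other organs. Atp5a1 and Atp5b together reached 8270 ± 1410 CPM in fed iBAT and 1550 to 3160 CPM on average elsewhere. The c-subunit sum per alpha and beta CPM was thus 0.0301 ± 0.00565 in iBAT, against 0.136 ± 0.00432 in OB, the lowest of the other organs, and 0.433 ± 0.036 in LIV, the highest. These sums hold only reads with a single place, and both Atp5g1 and Atp5g2 have near-identical copies. Atp5g1 matches Gm10039 at 99.76% identity over 8.7% of its transcript and 14 genes in all, and Atp5g2 matches Gm10175 at 100% over 16.9%, while the copies were counted at medians of 98.7 and 22.85 CPM. The sum and the ratio may therefore not measure the c subunit as expressed.

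Isoforms of complex IV subunits differed in level, and Cox6a2 varied widely between libraries of the same organ. Cox4i1, the common isoform of subunit 4, was at 475 to 1280 CPM on average in fed organs, whereas Cox4i2, its lung and hypoxia isoform, stayed at 0.0454 CPM in LIV to 5.81 CPM in psWAT. Cox6a2, the heart and skeletal muscle isoform of subunit 6a, was at 10.2 ± 15.0 CPM in fed iBAT (SD, n = 3, from 0.616 to 27.5), 7.52 ± 6.51 in STM, 6.50 ± 1.41 in BRN and 4.58 ± 3.74 in psWAT, and at 0.14 to 1.82 CPM on average in the other 5 organs. Over all times it was called higher than in the other organs in BRN too (log2 1.80, SE 0.35, adjusted p = 1.67e-06). The SD of Cox6a2 was close to or above its mean in iBAT and STM, 2 organs in which skeletal muscle markers also ranged widely (70.4 to 3430 CPM and 234.7 to 1680 CPM in the early libraries). Cox7b2 was counted in 66 libraries and listed at 0 in 96, and reached 2.15 CPM at most, in CBL. Cox8c, a testis isoform, was listed at 0 in 158 libraries. Uqcrc1, a core subunit of complex III that every respiring cell uses, was counted in 51 libraries only, at 7.27 CPM at most, so its counts were not read as its expression. No copy or overlapping gene was found for it.

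Per kilobase of exon, the fed levels show how unevenly subunits of one complex are counted. In fed iBAT, Cox6a1 stood at 1610 ± 321 CPM per kb (SD, n = 3), Cox8a at 1480 ± 398 and Cox6b1 at 1360 ± 557, all small subunits of complex IV. Cox5a of the same complex stood at 315 ± 89.9, Atp5b at 1210 ± 237 and Atp5a1 at 999 ± 131.9 CPM per kb. In complex II, Sdhd stood at 694 ± 302, Sdha at 531 ± 60.3 and Sdhc at 157.4 ± 27.02 CPM per kb. Their ranges over 3 mice do not separate Sdhd from Sdha. In complex I, Ndufv1 stood at 317 ± 45.6, while Ndufs1, with its long annotated exons, stood at 97.3 ± 19.3. Ndufs3 stood at 7.52 ± 1.93 CPM per kb, and 75.7% of its transcript matches the gene Gm12251 at 98.61% identity.

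Part of the counted levels of the mt genes is set by the counting, since only reads with a single best place were kept. A block of chromosome 1 holds annotated copies of mitochondrial sequence, and these cover at least 99% of mt-Atp6, mt-Co2, mt-Co3, mt-Nd3 and mt-Nd4l, 63.6% of mt-Nd4 and 31.3% of mt-Co1. These are aligned matches between annotated transcripts of at least 98% identity. The 5 genes with a full copy together held a median of 0.413% of the counts of the 13 mt genes (0.195% to 0.738% over libraries). The 5 with no such copy, mt-Cytb, mt-Nd1, mt-Nd2, mt-Nd5 and mt-Nd6, had median levels of 9780, 7370, 5040, 2510 and 507 CPM per kb. mt-Co1 stood highest at 13300 CPM per kb, mt-Co2 at 230 and mt-Nd4l lowest of those counted at 2.04. mt-Nd6 is the member read from the light strand. mt-Atp8, which overlaps mt-Atp6, was counted in 8 libraries only. Sums over the 13 mt genes therefore rest on 7 of them, and low counts of the fully copied genes are not a measure of their expression.

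**Figure D2:**
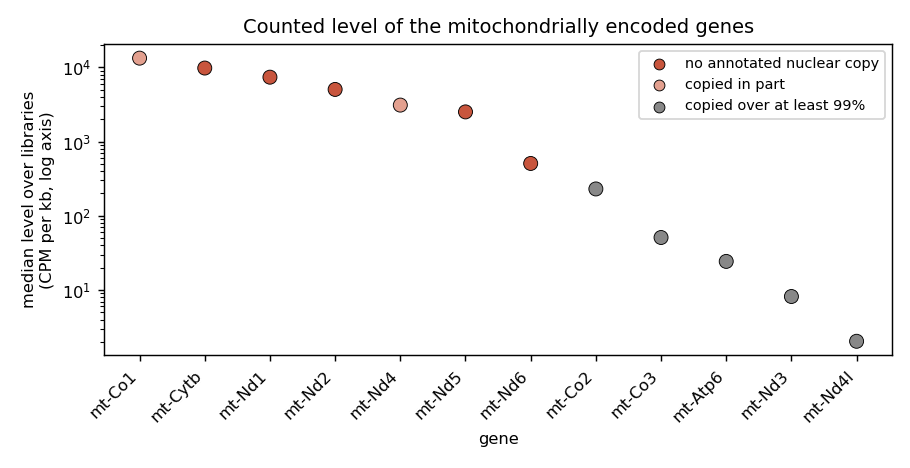
Median level over all libraries of 12 mitochondrially encoded genes, in CPM per kilobase of exon on a log axis (mt-Atp8, with a median of 0, is not drawn). Points are coloured by whether annotated copies on chromosome 1 cover at least 99% of the gene, a part of it or none. The 5 fully copied genes are the 5 lowest, from 230 CPM per kb (mt-Co2) down to 2.04 (mt-Nd4l).

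Fasting was first compared as late minus early within each organ. Of the 94 members, 87 passed the filter on low counts in every organ. Cox8c and mt-Atp8 passed in none, Cox7b2 passed only in BRN and CBL, and Uqcrc1 only in iBAT. A total of 89 members were called in at least 1 organ, 28 in 3 or more, and 19 in both directions in different organs. Of the 21601 genes tested in at least 1 organ, 43.5%, 3.54% and 4.18% were called in these ways. These genes include some tested in fewer organs than most members, which gave them fewer chances of a call. The mice within a group are separate animals, so the p-values measure the spread between mice.

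**Figure D3:**
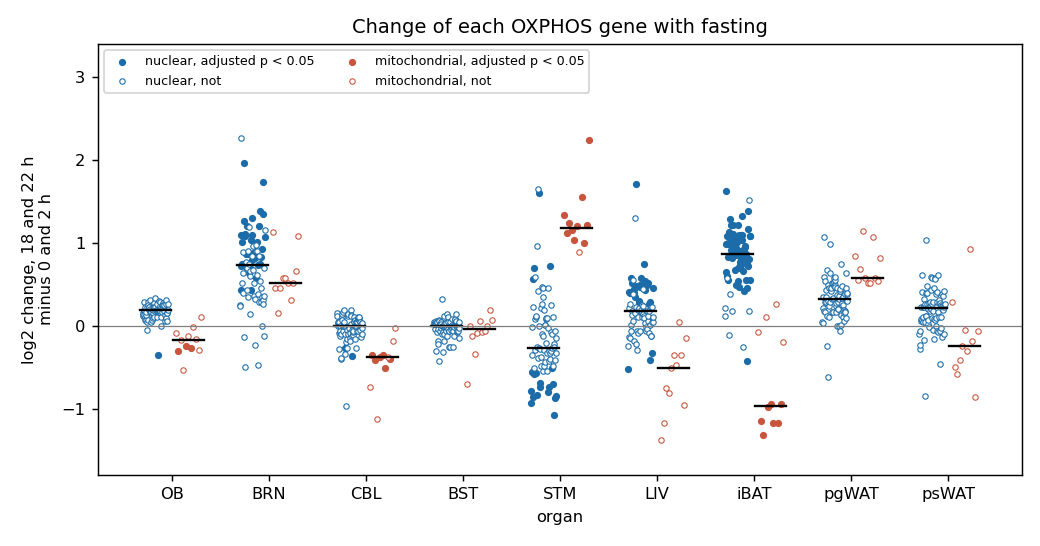
Log2 change of each OXPHOS member from early (0 and 2 h) to late fasting (18 and 22 h) in each organ, from edgeR. Blue points are nuclear and red points mitochondrially encoded genes, filled where adjusted p was under 0.05, and bars are the medians of the members tested. mt-Nd4l is not drawn because its counts are near 0. The nuclear median is highest in iBAT (0.87) and the mt median lies at 1.18 in STM and -0.97 in iBAT.

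In brown fat, the nuclear members were higher and the mt members lower in late fasting. Of 79 nuclear members tested, 69 were higher and 1 lower (median log2 0.87), beside 16.6% of all genes higher and 19.4% lower. Of 12 mt members tested, 8 were lower (median -0.97) and none was higher. By complex, 35 of 36 nuclear members of complex I rose, 3 of 4 of complex II, 6 of 8 of complex III, 13 of 14 of complex IV and 12 of 17 of ATP synthase. The change sat at 22 h, where only 2 libraries were kept. Against 0 h, 69 nuclear members were higher and 2 lower at 22 h and 9 mt members were lower, beside 19.1% and 22% of all genes, whereas no member was called at 2, 8, 12 or 18 h. At an unadjusted p under 0.05 (edgeR), 10, 3, 4 and 2 nuclear and 3, 1, 9 and 1 mt members were counted at these times, beside 7.06%, 8.76%, 9.37% and 8.89% of all genes, and DESeq2 called 1 mt member at 2 h and 1 nuclear member at 8 h.

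The nuclear share was 4.15%, 2.81% and 5.01% in the fed iBAT libraries and 10.6% and 8.03% at 22 h. The third 22 h library, which the study left out, stood at 9.57%. The mt share was 32.1%, 35.4% and 18.2% in the fed libraries, 4.70% and 10.8% at 22 h and 7.76% in the library left out. So the 22 h libraries lay outside the range of the fed ones in both measures, in opposite directions. Since the mt genes held up to 35.4% of the counts, the nuclear share was also taken of the counts outside the mt genes. It was then 4.35% to 6.13% in the fed libraries, 4.35% to 7.26% over 0 h to 18 h (n = 15) and 9.00% and 11.1% at 22 h.

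Uqcr11, a small subunit of complex III, was at 106 to 333 CPM (median 161.3) in the 15 libraries from 0 h to 18 h and at 1180 and 568 CPM at 22 h. Its late minus early log2 change was 1.39 (SE 0.24, adjusted p = 0.00123). Cox4i1 was at 772 to 2500 CPM (median 1310) up to 18 h and at 6370 and 3980 CPM at 22 h (log2 1.22, SE 0.22, adjusted p = 0.00129). Cox6a1 was at 867 to 2350 CPM up to 18 h and at 4220 and 3470 CPM at 22 h (log2 1.03, SE 0.19, adjusted p = 0.00129). In each of these genes both 22 h libraries stood above all 15 earlier ones. Atp5h, a stalk subunit of ATP synthase, rose by 1.00 (SE 0.18, adjusted p = 0.0013), and Cox7a2l, a relative of the complex IV subunit 7a, rose by 0.95 (SE 0.18, adjusted p = 0.00148).

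Some large core subunits did not follow. Sdha, the catalytic flavoprotein of complex II, was at 1920 to 3100 CPM up to 18 h and at 1300 and 1630 CPM at 22 h, below all earlier libraries, and its late minus early change was -0.43 (SE 0.13, adjusted p = 0.0198). The other subunits of the same complex moved the opposite way, with Sdhb at 607 to 1550 CPM up to 18 h and at 2390 and 1910 CPM at 22 h. Ndufs1 was lower at 22 h than at 0 h (log2 -0.60, SE 0.21, adjusted p = 0.0331). Atp5a1 (log2 0.12, SE 0.12, adjusted p = 0.465) and Atp5b (log2 0.21, SE 0.13, adjusted p = 0.224) did not pass the test, and their 22 h values of 3590 and 3940 CPM and of 6180 and 7000 CPM lay inside the range of the earlier libraries. Of the mt genes, mt-Nd4 fell by 1.18 (SE 0.21, adjusted p = 0.00124), mt-Cytb by 0.98 (SE 0.21, adjusted p = 0.00268), and mt-Co1 by 1.15 (SE 0.27, adjusted p = 0.00468). mt-Co1 was at 36800 to 136000 CPM up to 18 h and at 15000 and 38900 CPM at 22 h, so replicate 3 overlapped the earlier range. mt-Nd1, mt-Nd2, mt-Nd5 and the fully copied mt-Co2 were also called lower, by 0.95 to 1.32. mt-Nd4l, fully copied and called lower too, was at 0 to 5.94 CPM.

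Other properties of the 22 h libraries moved with these changes, and their part in the result was not tested. Short genes as a whole rose, with a median log2 change of 0.60 over all genes of up to 1550 exon bases and -0.16 over longer ones. Among the nuclear members the median was 0.99 in the 39 shorter genes (38 higher) and 0.79 in the 40 longer genes (31 higher, 1 lower). Cytosolic ribosomal protein genes summed to 10814 and 6276 CPM at 22 h and to 1660 to 3443 CPM in the early libraries. Adipocyte markers summed to 22800 and 27700 CPM at 22 h and 8880 to 13200 CPM early, while brown adipocyte markers overlapped (7820 and 10100 CPM against 5300 to 9090). Ucp1 itself did not pass the test (log2 0.13, SE 0.24, adjusted p = 0.69). The 22 h libraries ran on lanes 1 and 3, which held no other iBAT library, so lane and time cannot be told apart there. Replicates 1 and 2 at 22 h also carried another number series than the rest.

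The iBAT result rests on 22 h. With 18 h alone as the late time no member was called and the nuclear median was 0.20, and with 22 h alone 71 nuclear and 8 mt members were called. When a trend of the counts over exon length was taken out of each library, the nuclear median fell to 0.47, with 51 nuclear members called, and the mt median to -1.50. Without 22 h replicate 2, which left 1 library at that time, 56 nuclear and 6 mt members were called.

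**Figure D4:**
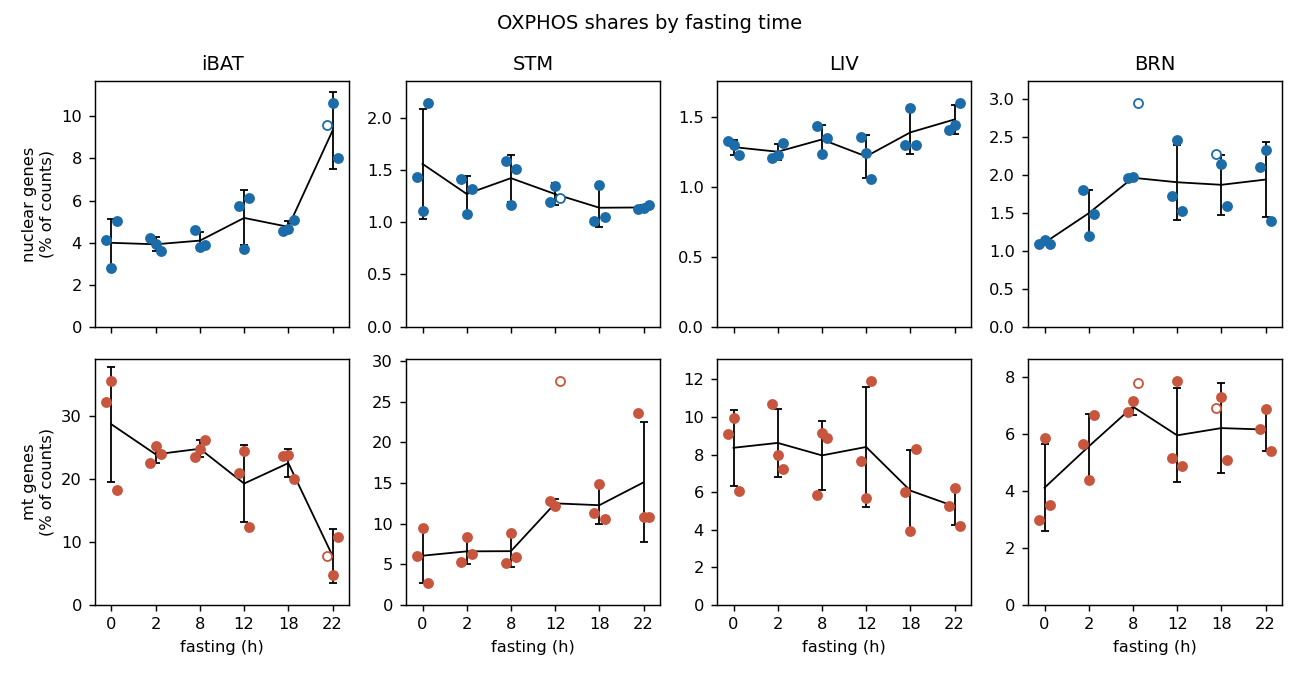
Share of counts of the nuclear OXPHOS genes (upper row) and of the mt genes (lower row) by fasting time in iBAT, STM, LIV and BRN. Filled points are kept libraries, open points libraries left out, and lines join the group means with SD bars (n = 2 or 3). In iBAT the nuclear share rises to 10.6% and 8.03% and the mt share falls to 4.70% and 10.8% at 22 h, and in STM the mt share is higher from 12 h on.

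In the stomach the mt members were higher in late fasting, and more nuclear members were lower than higher. Of 12 mt members tested, 10 were higher late (median log2 1.18), and of 78 nuclear members 16 were lower and 4 higher (median -0.26), beside 10.7% of all genes higher and 12% lower. The mt share was 6.06%, 9.41% and 2.67% in the fed libraries, 5.16% to 8.80% at 2 h and 8 h, 12.8% and 12.1% at 12 h, 11.3%, 14.9% and 10.5% at 18 h, and 23.6%, 10.8% and 10.9% at 22 h. All libraries from 12 h on lay above all those up to 8 h, and the 12 h library left out stood at 27.5%. The nuclear share overlapped, at 1.08% to 2.14% early and 1.02% to 1.35% late. The nuclear median rested on 1 fed library, since it was 0.04 without 0 h replicate 3 and -0.41 without 0 h replicate 2, while the mt median was 0.87 to 1.35 with any library left out.

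mt-Nd6, a complex I subunit read from the light strand, was at 79.1 to 141.02 CPM early and at 294 to 792 CPM late, without overlap, and changed most (log2 2.24, SE 0.29, adjusted p = 0.000351). The strand setting of the counting was not given, so reads of the other strand may be among its counts. mt-Co1 was at 10857 to 39505 CPM early and at 41964 to 103544 CPM late (log2 1.12, SE 0.36, adjusted p = 0.0335). mt-Nd1 (1.20), mt-Nd5 (1.21), mt-Cytb (1.04) and mt-Nd4 (1.00) rose by similar amounts, as did mt-Atp6, mt-Co2, mt-Co3 and mt-Nd3 among the fully copied genes (1.16 to 1.55).

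The nuclear members that fell in STM included core subunits of complexes II, III and V. Atp5b was at 1202 to 1554 CPM early and 611 to 1212 CPM late (log2 -0.93, SE 0.17, adjusted p = 0.00199), with a slight overlap. Uqcrc2, a core subunit of complex III, was at 238 to 308 CPM early and 126.3 to 235.5 CPM late (log2 -0.87, SE 0.16, adjusted p = 0.00214), and Atp5a1 was at 1047 to 1353 CPM early and 656 to 1014 CPM late (log2 -0.79, SE 0.16, adjusted p = 0.00378). Early and late libraries did not overlap in Uqcrc2 or Atp5a1. Sdha (-0.71, adjusted p = 0.00421) and Uqcrfs1 (-0.85, adjusted p = 0.00421) fell with overlapping ranges. Cox6b2, a testis isoform of subunit 6b, rose from 1.85 to 2.61 CPM early to 2.89 to 14.8 CPM late (log2 1.60, SE 0.33, adjusted p = 0.00337), a low level throughout. Ndufs3 (0.72), Atp5h (0.70) and Atp5g2 (0.56) were the other nuclear members that rose. Those that rose were 5.13% of the nuclear members, below the 10.7% of all genes.

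By single time points, STM had calls at 18 h, where 21 nuclear members were lower and 1 higher and 1 mt member was higher than at 0 h, beside 5.92% of all genes higher and 8.41% lower. Sdhd fell by 1.60 (SE 0.33, adjusted p = 0.00764) and Atp5b by 1.32 (SE 0.24, adjusted p = 0.00488), and the higher mt member was mt-Nd6 (1.94, SE 0.41, adjusted p = 0.00889). The 23 members called at any time against 0 h became 50 without 0 h replicate 2 and 6 without 0 h replicate 3, 18 h replicate 1 or 18 h replicate 3. Markers of other cell types moved with the STM changes, and their part was not tested. Parietal cell markers, from acid-secreting cells rich in mitochondria, summed to 7010 to 11600 CPM early and 2480 to 9390 CPM late, and other gastric epithelial markers to 148000 to 198000 and 95500 to 170000 CPM. Smooth muscle markers summed to 4030 to 7240 CPM early and 5780 to 17700 CPM late, and skeletal muscle markers to 234.7 to 1680 and 2250 to 4510 CPM, the last without overlap. In STM all libraries up to 2 h ran on lane 5 and all from 12 h on ran on lane 6, so lane and time cannot be told apart except through 8 h. With lane in the model no member was called, while the medians were -0.31 (nuclear) and 1.63 (mt). Leaving out 0 h replicate 2 raised the nuclear calls from 20 to 34, and leaving out 2 h replicate 1, 2 h replicate 3 or 22 h replicate 3 left 13. The 10 mt calls became 6 without 0 h replicate 1 or 2 h replicate 1, and 5 without 2 h replicate 3 or 22 h replicate 1.

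In the liver, some nuclear members changed, most of them upward, and no mt member passed the test. Of 77 nuclear members, 22 were higher and 3 lower (median log2 0.18), beside 7.76% of all genes higher and 7.2% lower, and none of 11 mt members was called by edgeR (median -0.51), while 7 were lower at an unadjusted p under 0.05 (14.6% of all genes) and DESeq2 called 3. Atp5h was at 43.5 to 62.9 CPM early and 74.5 to 84.9 CPM late (log2 0.58, SE 0.07, adjusted p = 8.39e-05). Ndufa5, an accessory subunit of complex I, was at 96.8 to 129 CPM early and 138.4 to 199.1 CPM late (log2 0.58, SE 0.10, adjusted p = 0.00058). Ndufb7 (0.54, adjusted p = 0.000951), Ndufs7 (0.52, adjusted p = 0.00117) and Ndufa3 (0.47, adjusted p = 0.00149), all of complex I, rose with no overlap of early and late libraries. The 3 that fell were Atp5b (-0.52, adjusted p = 0.0163), Sdha (-0.41, adjusted p = 0.0285) and Uqcrc2 (-0.33, adjusted p = 0.0302), with overlapping ranges, and these 3 also fell in STM.

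Against 0 h, LIV had 1 nuclear member higher at 8 h (Atp5h, 0.54, adjusted p = 0.0352), beside 0.342% of all genes. At 12 h 15 nuclear members were higher and 15 lower and 1 mt member was higher, beside 5.68% and 6.18% of all genes. Ndufs3 was then 0.94 higher (SE 0.15, adjusted p = 0.00107), and Atp5f1, a stator subunit of ATP synthase, fell by 0.81 (SE 0.15, adjusted p = 0.00272). At 18 h 11 nuclear members were higher and none lower, beside 5.15% of all genes higher, and at 22 h 14 were higher and none lower, beside 2.33%. Atp5h was called at 8, 12, 18 and 22 h, by 0.54, 0.74, 0.76 and 0.75. The mt share was 6.06% to 10.7% early and 3.94% to 8.28% late. Cytosolic ribosomal protein genes moved with the nuclear members here too (24 of 80 higher and 1 lower), while hepatocyte markers overlapped (75600 to 86100 CPM early, 75300 to 93900 CPM late). Early and late LIV libraries also ran on separate lanes, and with lane in the model no member was called, at an unchanged nuclear median of 0.18. That median was 0.11 without 18 h replicate 2 and 0.07 with 18 h alone as late. Without 0 h replicate 2, the members called at any time against 0 h went from 35 to 18.

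In the brain, 34 of 79 nuclear members were higher late and none lower (median log2 0.73), beside 5.19% of all genes higher and 2.24% lower, and none of 11 mt members was called by edgeR (median 0.52), while 5 were higher at an unadjusted p under 0.05 (14.2% of all genes) and DESeq2 called 1. Ndufb7 was at 57.5 to 98.3 CPM early and 101.5 to 164.99 CPM late (log2 1.01, SE 0.19, adjusted p = 0.0141). Ndufv3, a small subunit of the complex I NADH-binding arm, was at 50.4 to 78.1 CPM early and 96.8 to 124.7 CPM late (log2 0.93, SE 0.17, adjusted p = 0.0141), and Ndufb11 at 59.4 to 91.5 and 97.7 to 140 CPM (log2 0.82, SE 0.15, adjusted p = 0.0141). These 3 did not overlap between early and late, whereas Ndufa13 (0.79) and Atp5g3 (1.01) did. Against 0 h, 39 members were higher at 12 h (all genes 4.08%), 15 at 18 h (1.88%) and 40 at 22 h (5.06%). The 0 h libraries carried another number series than all 18 h and 22 h libraries, so series and time cannot be told apart at these times.

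Other abundant transcripts moved with the nuclear share in BRN, and their part in the result was not tested. The nuclear share was 1.09% to 1.14% at 0 h, 1.39% to 2.33% late, and 2.94% and 2.27% in the 2 libraries left out. Taken of the counts outside the mt genes, it was 1.13% to 1.91% early (0 h and 2 h) and 1.47% to 2.5% late, so early and late overlapped. At 2 h the nuclear median log2 change against 0 h was already 0.49, with no member called. Across the 16 kept BRN libraries the nuclear share went with the summed cytosolic ribosomal protein genes (Spearman 0.99) and with the mitochondrial rRNAs (Spearman 0.97), descriptions over libraries that share their normalization. Forebrain neuron markers overlapped (1070 to 1410 CPM early, 789 to 1280 CPM late). Shorter genes changed upward in BRN, with medians over all genes of 0.36 below and -0.11 above 1550 bases, and over the nuclear members of 0.81 and 0.67. When the trend over exon length was taken out, 26 nuclear members were called at a median of 0.56, and the mt median was 0.34. The BRN calls depended on single libraries. None of the 34 was left without 0 h replicate 1, 18 h replicate 2 or 22 h replicate 2, although the nuclear medians were 0.70, 0.59 and 0.63 in these fits. In turn, 7 were called without 2 h replicate 2, 9 without 22 h replicate 1, 13 without 2 h replicate 3, 15 without 0 h replicate 3 and 17 without 0 h replicate 2. On the other side, 58 and 59 were called without 18 h replicate 3 and 22 h replicate 3. No nuclear member was called without the pair of BRN libraries that stood nearer to another organ, with lane in the model, with the number series of the library names in the model, with all 18 BRN libraries, or with 18 h alone as late. The nuclear median was 0.61, 0.60, 0.48, 0.64 and 0.66 in these fits. All 0 h libraries of BRN carried the same number series and all kept 18 h and 22 h libraries another. Among the early libraries only those at 2 h held both series, so series and time can hardly be told apart.

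In the olfactory bulb and cerebellum the changes were small, and the mt members called were all lower. OB had 3 nuclear members higher (3.85%) and 1 lower (1.28%) of 78 and 3 mt members lower of 11 (27.3%), beside 2.32% of all genes higher and 2.54% lower. The nuclear counts were thus near the shares of all genes. mt-Co1 was at 16934 to 23167 CPM early and 13420 to 17388 CPM late (log2 -0.30, SE 0.07, adjusted p = 0.0308), and mt-Nd2 (-0.27) and mt-Cytb (-0.24) fell with it. The nuclear Ndufa6 (0.25), Sdhb (0.27) and Ndufa7 (0.30) rose, and Ndufb2, an accessory subunit of complex I, fell from 24.8 to 30.4 CPM early to 16.6 to 23.9 CPM late (log2 -0.36, SE 0.08, adjusted p = 0.0153). At 18 h alone, 32 nuclear members were higher and 1 lower than at 0 h and 3 mt members were lower, beside 5.7% and 6.31% of all genes, and no member was called at 22 h. The members called at any time against 0 h went from 36 to 0 without replicate 1 at every time, 4 without replicate 3 and 46 without replicate 2. Of the OB late minus early calls, none was left without replicate 1 or replicate 3 at every time, while 9 nuclear members and 1 mt member were called without replicate 2. OB lanes also separated early from late times, and no member was called with lane in the model, at medians of 0.28 (nuclear) and -0.13 (mt) against 0.18 and -0.17 without it. With the replicate number as a block, 10 nuclear and 3 mt members were called.

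In CBL 6 of 11 mt members (54.5%) and 2 of 79 nuclear members (2.53%) were lower and none higher, beside 0.77% of all genes higher and 1.71% lower. The nuclear count was near the share of all genes. mt-Nd2 was at 5824 to 6359 CPM early and 3745 to 5179 CPM late (log2 -0.51, SE 0.07, adjusted p = 0.00131), and mt-Nd4 at 3714 to 4283 and 2553 to 3708 CPM (log2 -0.40, SE 0.06, adjusted p = 0.00298), both without overlap. mt-Cytb, mt-Co1, mt-Nd1 and the fully copied mt-Co2 fell by 0.35 to 0.42. Ndufb2 (-0.37, adjusted p = 0.00722) and Cox6c, a small subunit of complex IV (-0.27, adjusted p = 0.0191), were the nuclear members that fell, without overlap. At 22 h the same 6 mt members and Ndufb2 were lower than at 0 h, beside 3.02% of all genes lower, with mt-Nd2 at -0.68 (SE 0.10, adjusted p = 0.00233) and the fully copied mt-Co2 at -0.72 (SE 0.11, adjusted p = 0.00412). At 18 h no member was called against 0 h. With 18 h alone as the late time the mt median was -0.21 and none of these calls was left, against -0.54 with 22 h alone. All CBL libraries were sequenced on 1 lane. Without replicate 1, 2 or 3 at every time, 5, 4 and 2 mt members and 1, 0 and 0 nuclear members were called.

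No member was called late minus early in BST, pgWAT or psWAT, where few genes were called at all. The shares of all genes called were 0.0119% higher and 0.0655% lower in BST, 0% and 0.00609% in pgWAT and 0% and 0% in psWAT. At an unadjusted p under 0.05 in edgeR, 11 nuclear members and 1 mt member were counted in BST, 11 and 9 in pgWAT, all higher late, and 1 and 0 in psWAT, beside 11.6%, 20.2% and 6.83% of all genes (11.1% higher in pgWAT). The nuclear medians were -0.01 in BST, 0.32 in pgWAT (0.15 without replicate 3) and 0.21 in psWAT, where the direction turned on 1 replicate (-0.79 without replicate 3, 0.73 without replicate 1 and 0.41 without replicate 2). In BST the nuclear share ran from 1.33% to 1.53% over 18 libraries. In psWAT the nuclear share ran from 0.695% to 2.13%, and the mt share from 1.04% to 12.0%. By DESeq2, 9 mt members were called higher in pgWAT and no member in BST or psWAT, with no DESeq2 count over all genes to set beside them. The fed psWAT libraries were uneven, with nuclear shares of the counts outside the mt genes of 2.32%, 2.08% and 0.71%, and without replicate 3 at every time 67 members were called against 0 h at 1 or more times, all of them lower than at 0 h, beside 8.31% of all genes lower and 1.64% higher, where edgeR called none with it and DESeq2 called 1.

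Whether the organs changed differently was tested as the late minus early change of each organ against the mean change of the other 8. In STM, all 12 mt members tested, the 5 fully copied genes among them, changed upward relative to the other organs. There 40 of 80 nuclear members changed downward and 2 upward, beside 7.83% of all genes upward and 8.33% downward. In iBAT, 55 nuclear members changed upward and none downward and 7 mt members downward, beside 8.9% and 8.73%. By adjusted p, mt-Nd6 led in STM (2.03, SE 0.28, adjusted p = 4.24e-08), and Sdhd (-1.24, SE 0.22, adjusted p = 1.41e-05) and Atp5f1 (-1.06, SE 0.19, adjusted p = 2.54e-05) led the downward members. Cox7a2l (0.90, SE 0.16, adjusted p = 1.51e-05) led in iBAT, with mt-Nd4 downward (-1.25, SE 0.27, adjusted p = 0.000441). In BRN, 12 nuclear members changed upward and 1 downward, beside 2.43% and 4.38%, led by Atp5e, the epsilon subunit of ATP synthase (1.72, SE 0.32, adjusted p = 0.000421).

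Elsewhere the difference was called for single members. In LIV mt-Co1 changed downward (-1.12, SE 0.29, adjusted p = 0.0353), beside 0.398% of all genes upward and 0.448% downward. In pgWAT it was Cox4i2 (-1.20, SE 0.36, adjusted p = 0.0344; all genes 2.48% and 1.43%) and in psWAT Ndufs8 (-0.70, SE 0.18, adjusted p = 0.0351; all genes 0.402% and 0.344%). The pgWAT call made up 1.25% of the nuclear members, no more than the share of all genes downward. No member was called in OB (0% and 0% of all genes), CBL (0.0181% and 0.00904%) or BST (0% and 0.00452%), whose own spread is pooled with that of all organs in this fit. At an unadjusted p under 0.05 (edgeR), 2 nuclear members were counted in OB, 14 nuclear and 2 mt members in CBL and 17 nuclear members in BST, beside 2.32%, 7.93% and 5.82% of all genes. Without the libraries that stood nearer to another organ, no member was called in BRN, 55 in STM and 67 in iBAT. With the animal as a replicate block, the call in LIV was lost.

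**Figure D5:**
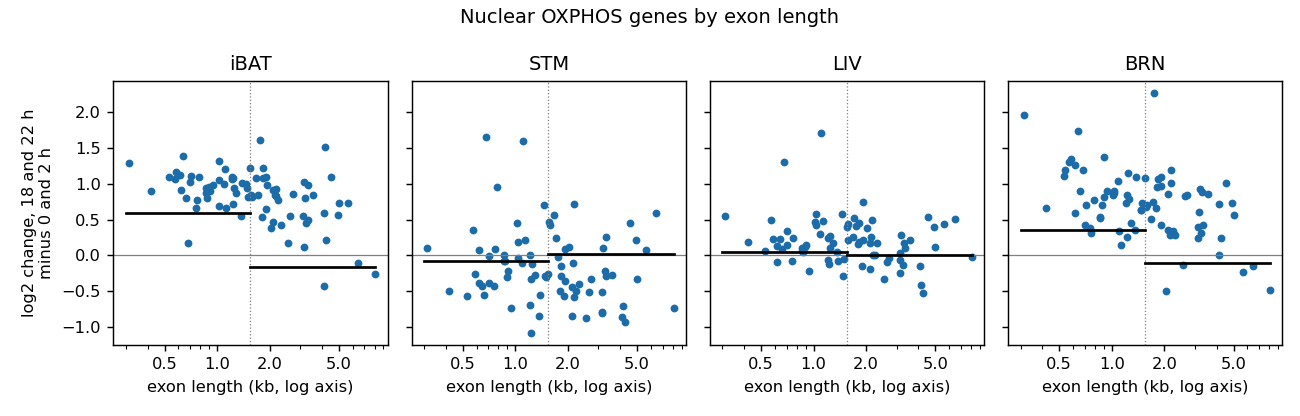
Log2 change from early to late fasting of each nuclear OXPHOS member against its exon length in kilobases (log axis) in iBAT, STM, LIV and BRN. Each point is a gene, the dotted line marks 1550 bases, and the black lines give the median change of all genes tested on either side. In iBAT the medians of the shorter and longer members (0.99 and 0.79) lie above these lines, which are at 0.60 and -0.16, and in STM the medians of the members on either side of 1550 bases are below 0.

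The genes around the respiratory chain did not all move with it, and their counts stand beside the shares of all genes called late minus early (16.6% higher and 19.4% lower in iBAT, 10.7% and 12% in STM, 7.76% and 7.2% in LIV, 5.19% and 2.24% in BRN). In iBAT, 58 of 76 mitochondrial ribosomal protein genes were higher and none lower late (median 0.69), 23 of 47 assembly factors were higher and 2 lower (median 0.47), and 42 of 78 cytosolic ribosomal protein genes were higher and none lower (median 0.80). Sdhaf1, which helps to mature the iron-sulfur subunit of complex II, rose by 1.24 (SE 0.18, adjusted p = 0.000686), and Etfb, which feeds electrons from fat oxidation into the chain, by 1.52 (SE 0.24, adjusted p = 0.000896). Cox8b (1.34) and Cox7a1 (1.12), the muscle and brown fat isoforms set aside above, rose too. Of 13 genes of the citric acid cycle, 1 was higher (Suclg1, 0.55) and 1 lower (Ogdh, -0.49). Of 17 regulators of mitochondrial genes, 7 were lower and 1 higher. Esrrb fell by 2.63 (SE 0.56, adjusted p = 0.00267) from 0.91 to 5.85 CPM early to 0 to 0.76 CPM late, Pprc1 by 1.26 (SE 0.36, adjusted p = 0.0127) and Gabpb2 by 0.74 (SE 0.21, adjusted p = 0.0111). Ppargc1a, the coactivator that drives mitochondrial biogenesis, was at 32.3 to 64.6 CPM early and 12.4 to 69.2 CPM late in iBAT and did not pass the test (log2 -0.47, SE 0.25, adjusted p = 0.149), nor did it in the other organs.

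In STM the citric acid cycle fell, with 9 of 13 genes lower and none higher (median -0.54). Suclg1, a succinyl-CoA synthetase subunit, fell by 1.09 (SE 0.17, adjusted p = 0.000925), and Mdh2 and Fh1 fell by 0.80 and 0.73. Slc25a5, an ATP/ADP carrier, fell by 1.09 (SE 0.19, adjusted p = 0.00136), and 6 of 20 electron carriers and partners were lower and 2 higher, the latter a share near that of all genes. Mitochondrial ribosomal protein genes were lower in 12 of 76, a share near that of all genes, and higher in none. Cytosolic ribosomal protein genes were higher in 21 of 79 and lower in none. In LIV, 7 of 24 genes of mitochondrial DNA transcription and copying were higher and none lower, among them Mterf1a (0.75, SE 0.18, adjusted p = 0.00751). There 1 of 20 electron carriers and partners was higher (Etfb, 0.77), a share near that of all genes, and 3 were lower, among them Etfdh (-0.65) and Slc25a5 (-0.57). In BRN, 18 of 76 mitochondrial and 25 of 78 cytosolic ribosomal protein genes were higher and none lower.

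Ndufs3 was called higher in BRN, STM, LIV and iBAT, with the reservation on its copy given above, and 12 further members, among them Cox4i1, Cox5b, Ndufa13, Ndufb7 and Ndufs7, were called higher in 3 organs. The share of all genes called in 3 or more organs, given above, counts either direction. None of the calls in BRN, STM and LIV was left with lane in the model. Other genes or copies of at least 98% identity cover 30% or more of the transcript in 11 nuclear members, among them Cox5b (45.1%, Gm11273), Ndufa13 (30%, Tssk6, which overlaps it on the opposite strand), Atp5o and Atp5h (34%, Gm10250), so their counts may hold only part of their reads. Members with opposite calls in STM and iBAT, lower and higher respectively, included Cox5a, Ndufv1, Atp5c1, Atp5f1 and Atp5o. Sdha was the one nuclear member called lower in STM, LIV and iBAT. These organs came from the same mice, so the lists are not independent.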

How the data were processed

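Stranded poly(A) libraries were sequenced, and the authors aligned the reads with TopHat2 2.1.1 to GRCm38.p5 (versions from the submitters' processing notes), kept those that mapped to a single place and counted them over exons with HTSeq 0.9.1. The strand setting was not given in the sources used here. The deposited values are raw counts per gene in each library, and no other unit was used. The 5 libraries the study excluded were left out. Counts were tested with edgeR 4.0.16 (quasi-likelihood, TMM factors, robust dispersions, R 4.3.3) within each organ over all 6 times, and over all organs with fasting time as a factor, on genes with the equivalent of 10 counts in 3 or more libraries (14023 to 16784 genes in an organ, 22113 over all). P-values were adjusted by the Benjamini-Hochberg method over all genes tested. The tests were tried on simulated counts with known changes.

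The members, lists and alternatives were chosen with earlier results of these data known. Named genes were the 5 called nuclear members with the smallest adjusted p in each direction and organ, every called mt gene, the 3 nuclear members that differed most in each direction between organs, the 5 with the smallest adjusted p for the difference between organs, 3 called genes per pathway list and organ, and a fixed list for levels. Atp5c1, Atp5o, the changes of Sdhb and Ndufs1, and a few regulators and marker genes were added after their values were seen. Copies were searched with BLAST+ 2.17.0 between annotated transcripts. Each mouse gave all organs, which pairs libraries between organs. Within an organ each library is another mouse, and the replicate number marks no shared animal. No pair of libraries had identical counts. Alternatives were DESeq2 1.42.0, other size factors, no filter, blocks, lane, number series or length in the model, other sets of libraries, and each library or replicate left out.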

Additional observations from a re-analysis of the deposited data

Results flagged for a closer look

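The change from early to late fasting differed from that of the other organs, by the test of the difference itself (edgeR, adjusted p under 0.05), for 54 members in STM, 62 in iBAT, 13 in BRN and 1 each in LIV, pgWAT and psWAT, in a fit without the animal although each mouse gave all organs. Of all genes, 7.83% changed upward and 8.33% downward in STM, 8.9% and 8.73% in iBAT, and 2.43% and 4.38% in BRN. These shares were 0.398% and 0.448% in LIV, 2.48% and 1.43% in pgWAT, and 0.402% and 0.344% in psWAT. The single pgWAT call was no more than the share of all genes. With the animal as a block, the counts were 50, 60 and 12 in STM, iBAT and BRN, 0 in LIV, 1 in pgWAT and 2 in psWAT, and BRN had 0 without its libraries that stood nearer to another organ. In STM mt-Nd6 (2.03) and the fully copied mt-Co2 (1.53) changed upward on the log2 scale and Sdhd (-1.24), Atp5f1 (-1.06) and Uqcrfs1 (-1.04) downward, relative to the mean of the other 8 organs. In iBAT Cox7a2l (0.90), Ndufs8 (0.83), Atp5g2 (0.90) and Atp5d (0.85) changed upward and mt-Nd4 (-1.25) downward. In BRN the difference was 1.72 for Atp5e, 1.05 for Ndufs6, 1.28 for Uqcr11, 0.80 for Atp5d and 1.55 for the pseudogene Atp5l2-ps. The single members were mt-Co1 in LIV (-1.12), Cox4i2 in pgWAT (-1.20) and Ndufs8 in psWAT (-0.70). Ndufs8 thus differed upward in iBAT and downward in psWAT.

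Of the 5 libraries that the comparisons did not use, 4 lay above the fed libraries of their organ in 1 or both shares, and psWAT 22 h replicate 2 did not (nuclear 1.02%, mt 1.52%). The nuclear members took 9.57% of the counts of iBAT 22 h replicate 1, against at most 5.01% in the fed iBAT libraries, while its mt share of 7.76% lay below theirs (18.2% to 35.4%). The mt genes took 27.5% of STM 12 h replicate 3, against at most 9.41%. In BRN 8 h replicate 3 the nuclear members took 2.94% and the mt genes 7.81%, and in BRN 18 h replicate 1 they took 2.27% and 6.93%, against at most 1.14% and 5.86% in the fed BRN libraries. These BRN libraries held 130701 and 279848 counts in all.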

How the results depend on the processing

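Of 206 named gene results under 3390 alternatives, 2968 kept their direction and stayed past the threshold, 417 kept the direction only and 5 reversed, and of 733 alternative counts of members called, 585 were within 1.5 times the reported count. The reversed ones were, with 18 h alone as the late time, Atp5h (-0.03) and mt-Nd5 (0.16) in iBAT, and, in the 0 h libraries only, Atp5e in BRN (-0.67) and Atp5l2-ps (-0.07) and Ndufa2 (-0.06) in pgWAT against the other organs. The cause of the changes given here was not tested unless stated.

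For late minus early (reported as nuclear and mt members: OB 4 and 3, BRN 34 and 0, CBL 2 and 6, STM 20 and 10, LIV 25 and 0, iBAT 70 and 8, none in BST, pgWAT and psWAT), the counts that moved were as follows. DESeq2 called 12 nuclear members in OB and 1, 3 and 9 mt members in BRN, LIV and pgWAT. Without the filter, OB had 33 and 6, BRN 54 and 8, BST 1 nuclear and LIV 9 mt members. With lane in the model no member was called in OB, STM or LIV, where lane and time overlapped, or in BRN, where lanes were shared across times (0 nuclear in each, 0 mt in OB and STM). The number series, which nearly followed fasting time in BRN, left 0 there. Length offsets gave 2 and 1 in OB and 31 nuclear in STM. With every library, and without the libraries that stood nearer to another organ, BRN had 0, and the latter gave 1 mt member in pgWAT. Chosen after seeing the data, 18 h alone as late gave 41 nuclear members in OB, 0 in BRN, 0 and 0 in CBL, 3 mt in STM, 16 nuclear in LIV and 0 and 0 in iBAT, and 22 h alone gave 0 and 0 in OB, 14 nuclear in BRN, 4 nuclear in CBL and 0 and 3 in STM. A required absolute log2 change over 1 left 0 and 0 in OB, 16 nuclear in BRN, 0 and 0 in CBL, 2 nuclear in STM, 1 in LIV and 25 and 5 in iBAT. Leaving out libraries in turn gave 0 to 9 and 0 to 1 in OB, 0 to 59 and 0 to 3 in BRN, 0 to 1 and 2 to 5 in CBL, 13 to 34 and 5 to 11 in STM and 0 to 3 mt in LIV.

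For members called at any time against 0 h, DESeq2 gave 71 in BRN (reported 47), 16 in CBL (7), 35 in STM (23), 9 in pgWAT (0) and 1 in psWAT (0). Without the filter OB had 60 (36), CBL 21 and BST 3 (0). With every library BRN had 5, and pgWAT had 1 without the library nearer to another organ. Leaving out libraries gave 0 to 46 in OB, 0 to 66 in BRN, 2 to 9 in CBL, 6 to 50 in STM, 18 to 38 in LIV, 53 to 80 in iBAT and 0 to 67 in psWAT.

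For organs against the other organs, the 0 h libraries only called 1 mt member in OB and STM and 0 in CBL, with 24 and 1 members in BST, 25 and 3 in pgWAT and 10 and 0 in psWAT. DESeq2 and its size factors each gave 5 mt members in BRN (reported 8). A required absolute log2 difference over 1 left OB with 20 and 4, BRN with 6 and 0, CBL with 23 and 4, BST with 14 and 1, STM with 4 and 4, LIV with 33 and 6, pgWAT with 3 and 1 and psWAT with 13 nuclear members. Leaving out libraries gave 4 to 6 mt members in BRN and 6 to 9 in pgWAT (reported 10).

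For the difference of late minus early between organs, BRN (13) had 20 with DESeq2 size factors and 0 without the libraries nearer to another organ, LIV (1) and psWAT (1) had 2 each without them, and with every library STM (54) had 32 and LIV and pgWAT (1) 0. Without the filter LIV, pgWAT and psWAT had 0.

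Within an organ the replicate number pairs no mice, and the correlation of the deviations of same-numbered libraries averaged -0.08 (psWAT) to 0.03 (OB) in 8 organs. In iBAT it averaged 0.16 (-0.29 to 0.62, over 0.1 in 21 of 40 pairs) against -0.08 for other pairs, a hint that numbers share something there, and the counts with the block were 70 and 8 as without. With the replicate block, OB had 10 nuclear members called in late minus early. With the animal as replicate block over organs, the difference between organs was called for 0 members in LIV and 2 in psWAT, and no other count moved by over 1.5 times. Lane could not be fitted in iBAT.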
